A study of Mus musculus with 4 samples.

Results

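The clustered protocadherin locus of the mouse was examined for 5-formylcytosine (5fC) and 5-carboxylcytosine (5caC) in E14 embryonic stem cells. Its members were all CpG sites listed on chromosome 18 of build mm9 from position 37090001 to 38005000, and 493 of the 472220 sites listed in 4 libraries lay there. The locus of 915 kb was divided by position into an alpha cluster of 260 kb (37090001 to 37350000), a beta cluster of 280 kb (37420001 to 37700000) and a gamma cluster of 190 kb (37815001 to 38005000). A spacer of 70 kb lay between alpha and beta, and a spacer of 115 kb between beta and gamma. The 1 Mb on each side of the locus served as flanks. The choice was by position, without regard to level or p-value, but it was made with earlier results of these data known.

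The protocadherin clusters encode cadherin-like proteins of the cell surface by which neurons tell their own branches from those of other cells. In the alpha and gamma clusters, each variable exon has its own promoter and is spliced to constant exons shared by the cluster, whereas the beta genes are separate genes of a single exon. Choice among the promoters in neurons is known to involve DNA methylation and the factor CTCF. TET enzymes oxidise 5-methylcytosine stepwise to 5-hydroxymethylcytosine, 5fC and 5caC, and the glycosylase TDG removes the last pair, after which repair restores an unmodified cytosine.

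In a RefSeq gene table of the assembly GRCm38.p6, used for names and order alone, the alpha family held 14 genes from Pcdha1 to Pcdhac2, the beta family 22 from Pcdhb1 to Pcdhb22 and the gamma family 22 from Pcdhga1 to Pcdhgc5. All 14 alpha genes and all 22 gamma genes shared their last end within 2 kb, as genes with common final exons do. Slc25a2, a mitochondrial carrier gene, and Taf7, which encodes a subunit of the general transcription factor TFIID, lay between the beta and gamma families. The neighbours on the left were Ik, Wdr55, Dnd1, Hars, Hars2 and Zmat2, and those on the right Diaph1, Hdac3, Rell2, Fchsd1, Arap3 and Pcdh1. Which exon or promoter a site lay in was not analysed here.

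Methylation-assisted bisulfite sequencing (MAB-Seq) was used. The CpG methyltransferase M.SssI first protects unmodified CpGs, so that a CpG cytosine still converted by bisulfite carried 5fC or 5caC or had escaped the enzyme. E14 is a mouse embryonic stem cell line, and wild-type cells gave 2 whole-genome libraries. A control shRNA and an shRNA against Tdg were used for 1 reduced-representation library each, in which MspI, an enzyme that cuts at CpG-containing sites, limits the genome to fragments near its sites. DNA of all groups was treated with M.SssI, and no library without this treatment was analysed here. With 1 library per shRNA, the shRNA and the library cannot be told apart. Whether the wild-type libraries represent separate cultures is not stated in the labels, and how far Tdg was depleted was not analysed here.

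The 4 lists are the authors' calls, so a site that is absent was not called and was not necessarily unmodified. The first whole-genome library gave a background-subtracted level, the percentage of converted reads, at 331875 CpGs, reported at the plus-strand cytosine. The second gave a p-value per cytosine at 118502 sites on both strands, from which read numbers could be recovered. Depth is unknown for the other 3 libraries. The second library's locus sites had recovered reads in 97 of 101 cases, with a median of 12 reads per site in alpha, 13.5 in beta, 12 in gamma and 15 in the flanks. All 95% intervals below cover counting error only, and they treat sites as independent although neighbouring sites can share reads and PCR copies were not told apart.

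The protocadherin clusters were dense in listed sites in the first whole-genome library. This library listed 380 sites in the locus, 114 in alpha, 132 in beta and 112 in gamma, but 4 in the alpha-beta spacer and 18 in the beta-gamma spacer. Per Mb, the flanks held 272 sites, with 275 on the left and 269 on the right. Alpha held 438 per Mb (362 to 527), beta 471 (394 to 559) and gamma 589 (485 to 709), all above the flanks. Relative to the flanks, the density was 1.61 times as high in alpha (1.31 to 1.98), 1.73 times in beta (1.42 to 2.10) and 2.17 times in gamma (1.75 to 2.66). The interval of the difference between beta and alpha included equality, with a ratio of 1.08 (0.830 to 1.39), and so did that between gamma and beta, with 1.25 (0.963 to 1.62). Gamma exceeded alpha by a ratio of 1.34 (1.03 to 1.76). These counts include sites at level 0, the floor left by the background subtraction. Without them, the ratio to the flanks was 1.69 in alpha (1.34 to 2.11) and 1.76 in gamma (1.35 to 2.26). In beta it was 1.67 (1.33 to 2.07). The excess of gamma over alpha was thus small without sites at level 0, and its direct ratio was not computed.

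In the second whole-genome library, gamma was the only cluster whose interval lay above the flanks. It listed 101 sites in the locus, with 29 in alpha, 28 in beta, 41 in gamma and 3 in the beta-gamma spacer. In the alpha-beta spacer it listed 0 sites, a count that allows up to 3.69 sites. Gamma again stood above the flanks, with 216 sites per Mb (155 to 293) against 102 and a ratio of 2.12 (1.47 to 2.97). For the whole locus the ratio was 1.08 (0.844 to 1.38). Alpha, with 112 per Mb, and beta, with 100 per Mb, lay close to the flanks, and their ratios of 1.09 (0.714 to 1.62) and 0.980 (0.636 to 1.46) included equality. In this library the flanks themselves differed, with 117 sites on the left and 87 on the right. Gamma exceeded alpha by a ratio of 1.93 (1.17 to 3.23) and beta by 2.16 (1.30 to 3.62). A density above the flanks was thus seen for gamma in both wild-type libraries, and for alpha and beta in the first. For alpha and beta, the intervals of the ratios to the flanks overlapped between the libraries. For beta they overlapped only narrowly, with 1.42 to 2.10 in the first and 0.636 to 1.46 in the second. Overlap of separate intervals does not decide whether the libraries differ, and this was not tested.

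**Figure D1:**
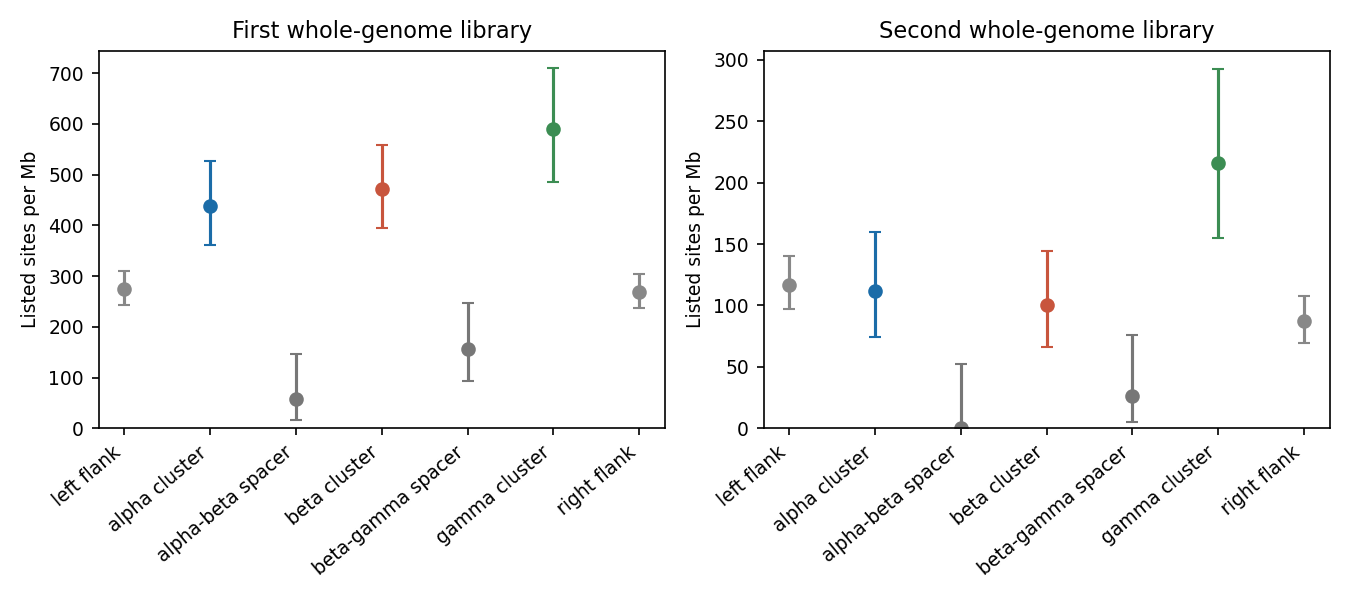
Listed sites per Mb (vertical axis) in each region of the locus and in the flanks for the whole-genome libraries, with a point for the density and a bar for its exact Poisson 95% interval. The vertical scales of the 2 panels differ. Gamma is highest in both libraries, at 589 and 216 sites per Mb, and the spacers are lowest.

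The spacers were sparse in both libraries. Together they held 22 sites in the first library and 3 in the second. Relative to the 3 clusters, their density was 0.242 (0.150 to 0.373) in the first library and 0.121 (0.0245 to 0.364) in the second. They also lay below the flanks, at 0.437 (0.272 to 0.669) and 0.159 (0.0325 to 0.471) of the flank density. These densities were not corrected for the number of CpGs or for coverage in each region, since no mm9 sequence was used, and the part of either in the differences was not tested.

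Set against all non-overlapping autosomal windows of the same length, the locus ranked high. In the first library, its 380 sites compared with a median of 94 (quartiles 44 and 166) over 2616 windows, and 96.7% of windows held fewer. Gamma, with 112 sites against a median of 17, had more than 98.5% of 12690 windows. Alpha exceeded 96.1% of its windows and beta 97.0%. In the second library, gamma with 41 sites against a median of 5 exceeded 98.3% of windows, and alpha and beta exceeded 89.2% and 86.3%. The flanks, with 272 first-library sites per Mb, were themselves denser than the median window, which held 102.7 per Mb at the length of the locus.

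Sites were spread unevenly within each cluster. Of the alpha sites, 96 of 114 lay in the first 130 kb in the first library and 19 of 29 in the second, which is the side where the first genes of the family are listed in the gene order. In beta the other side was fuller, with 106 of 132 sites in the last 140 kb, of which 74 remained without the longest run described below. The second library had 20 of its 28 beta sites there. In gamma, 71 of 112 sites and 24 of 41 sites lay in the first 95 kb, a weaker asymmetry. Among windows of 10 kb, 8 of 26 in alpha, 8 of 28 in beta and 4 of 19 in gamma held 0 first-library sites, beside 53 of 200 in the flanks. Windows with 10 or more sites numbered 6, 4 and 5, beside 8 of 200 in the flanks.

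**Figure D2:**
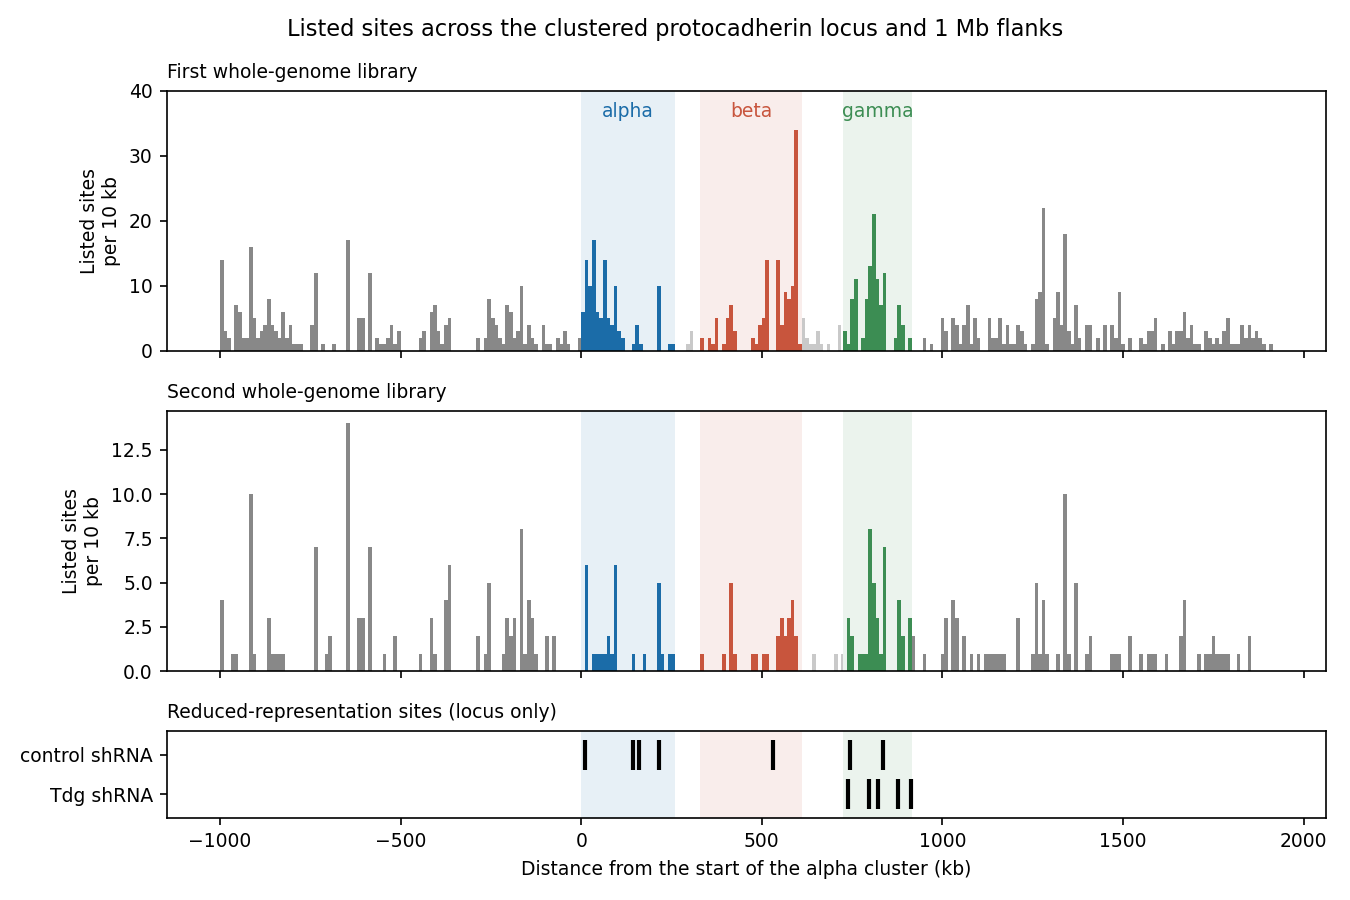
Listed sites per 10 kb along the locus and its flanks, by distance from the start of alpha (horizontal axis, kb), for the whole-genome libraries, and single sites of the shRNA libraries within the locus, with the 3 clusters shaded. The first library's sites crowd into the first 130 kb of alpha and the last 140 kb of beta, and the spacers are almost empty.

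The fullest windows differed in level. In alpha, position 37120001 to 37130000 held 17 first-library sites with a median level of 13.3% (0 to 36.6%) and 1 second-library site. The windows 37100001 to 37110000 and 37150001 to 37160000 held 14 sites each, with medians of 6.60% and 10.6%. In beta, the window 37680001 to 37690000 held 34 sites with a median of 46.5% (7.11 to 66.2%), none of them at 0. This window was unlike the other 2 in beta, 37600001 to 37610000 and 37630001 to 37640000, which held 14 sites each with medians of 14.02% and 9.12%. In gamma, 37895001 to 37905000 held 21 sites with a median of 6.80%, 37885001 to 37895000 held 13 with 15.4%, and 37925001 to 37935000 held 12 with 10.2% and a highest level of 75.8%. The second library listed 5, 8 and 7 sites in these 3 gamma windows. The 3 fullest windows held 39.5% of alpha sites, 47.0% of beta sites and 41.1% of gamma sites. In the left and right flanks they held 17.1% and 18.2%. Alpha, beta and gamma have 26, 28 and 19 windows, but each flank has 100. As 3 windows are a larger part of a cluster than of a flank, these shares cannot be compared directly.

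Levels in the first library were mostly low, as they were throughout the list. The median was 11.5% in alpha (9.79 to 14.1), 14.2% in beta (9.90 to 17.5) and 8.61% in gamma (6.19 to 11.1). It was 10.4% in the flanks (9.59 to 11.3) and 11.1% over the whole list. The 18 sites of the beta-gamma spacer had a median of 19.6% (7.84 to 30.2), and the 4 of the alpha-beta spacer 12.2%. The beta levels were the widest, with quartiles of 3.69% and 30.1%, beside 7.11% and 18.3% in alpha.

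A level of 0 is the floor left by the subtraction of the background. Over the whole list, 20.1% of first-library sites were at 0. In the locus the count was 89 of 380, or 23.4% (19.3 to 28.01), close to the flanks with 19.7%. Gamma had the highest share, 39 of 112 or 34.8% (26.1 to 44.4), beside 30 of 132 in beta (22.7%) and 18 of 114 in alpha (15.8%). Without them, the gamma median was 14.1% and the alpha median 13.8%. Within the clusters, high levels lay mostly in beta. Of the whole list, 5.88% of sites reached 50%, and so did 19 of 380 in the locus, or 5.00% (3.04 to 7.70). Beta held 16 of these 19, which is 12.1% of its sites (7.09 to 18.9), gamma held 3 and alpha 0 of 114, which allows a share of up to 3.18%.

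**Figure D3:**
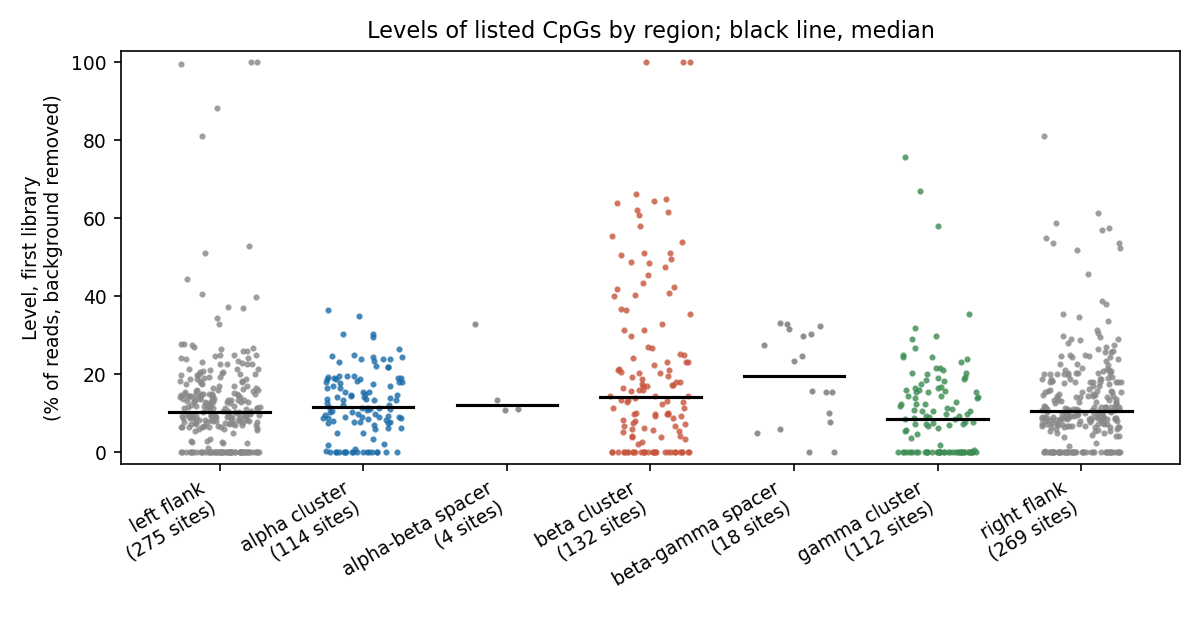
Deposited levels of first-library sites (vertical axis, percent of converted reads after subtraction of the background) in each cluster, spacer and flank, with 1 point per site and a black line for the median. Medians lie between 8.61% in gamma and 19.6% in the beta-gamma spacer, and within the clusters 16 of 19 levels of 50% or more are in beta.

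A run of 32 adjacent sites carried most of the high levels in beta. It spanned 239 bp, from position 37681387 to 37681625, and held 24.2% of the beta sites. Its median level was 47.9% (40.4 to 53.9), the range was 7.11 to 66.2%, 13 sites were at 50% or more and none was at 0. The levels were not even along the run. The first 4 sites were at 12.8%, 9.38%, 8.87% and 7.11%. From there they rose over 25.3% at 42 bp and 36.8% at 56 bp to 55.5% at 84 bp, dipped to 31.2% at 94 bp, and reached their maximum of 66.2% at 170 bp. Near the end a single site at 220 bp had 17.9%, between 45.6% at 216 bp and 50.6% at 224 bp, and the last site was at 31.2%. All 31 spacings between neighbours were even numbers of bases, and 12 were 4 bp.

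The sequence around the CpG set this run apart. Of its 32 sites, 21 had the 5 bases TGCGT centred on the cytosine and 6 had TACGT. Over the whole list, 3.82% of first-library sites had TGCGT, as did 2.76% in the flanks. All 21 TGCGT sites of the locus lay in this run, so that none was found in the rest of beta, in alpha or in gamma. Without the run, beta had 100 sites with a median of 9.79% (5.77 to 13.5), of which 30.0% were at 0 and 3 at 50% or more, and its density was 1.31 times that of the flanks (1.05 to 1.63). The locus then had 6 of 348 sites at 50% or more, or 1.72%.

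The second library listed only 2 of the 32 positions of the run, and both were near its low end. At position 37681387, 35 of 405 reads were converted, or 8.64% (6.09 to 11.8) before any subtraction of background, where the first library gave 12.8%. At position 37681419, 39 of 486 reads were converted, or 8.02% (5.77 to 10.8), where the first library gave 7.11%. These depths were far above those recovered in the rest of the locus, where the deepest site with recovered reads had 49. In the series, 150 of 102691 sites with recovered reads, or 0.146%, had 400 or more. None of the 13 positions with a level of 50% or more in the first library was listed in the second. The part of this unusual depth, which is known for the second library alone, in the levels was not tested.

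**Figure D4:**
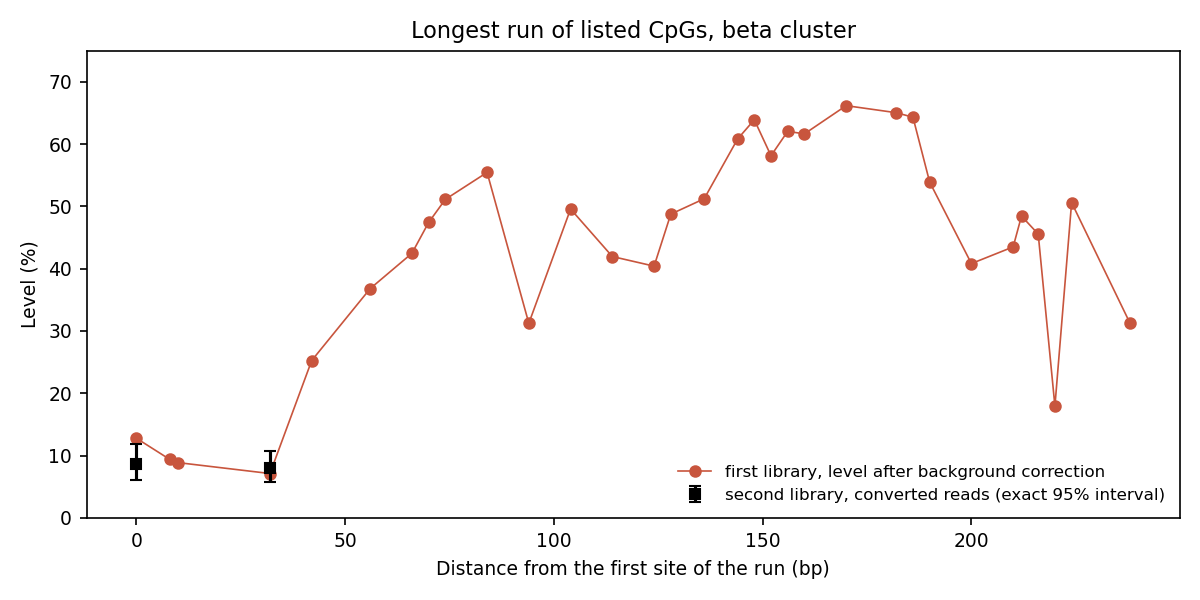
Level of each of the 32 sites of the longest run in the first library (vertical axis, percent) by distance from the first site (horizontal axis, bp), with the second library's converted reads and exact 95% intervals as squares. Levels rise from 7.11% at the fourth site to 66.2% at 170 bp, and both second-library sites lie at the low end.

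Closely spaced sites were common throughout the clusters, not only in the longest run. Runs were defined as 3 or more sites, each at most 100 bp from the next. In the first library, 26.6% of all listed sites lay in such runs. In the locus the share was 48.7% (43.6 to 53.8), in 40 runs, beside 30.3% in the flanks (26.5 to 34.4). Alpha had 14 runs with 43.9% of its sites, beta 12 with 59.8% and gamma 12 with 42.9%. Per Mb there were 53.8 runs in alpha, 42.9 in beta and 63.2 in gamma, beside 18 in the flanks. The median spacing between neighbours was 127 bp in alpha, 60 bp in beta and 122 bp in gamma, beside 393 bp in the left and 1235 bp in the right flank. Without the longest run, 44.0% of the locus sites still lay in runs. For runs of 5 or more sites, the share was 21.6% (17.5 to 26.1) in the locus, the longest run of 32 sites included. In the flanks it was 17.6% (14.5 to 21.1), so that the intervals overlapped. The locus share without the longest run was not computed for this definition, so an excess apart from that run was shown for runs of 3 or more only. The shares were not corrected for the density of listed sites. The next longest runs were 10 sites over 323 bp in beta (37609040 to 37609362), with a median of 16.7% and 3 sites at 0, and 8 sites over 192 bp in gamma (37841678 to 37841869), with a median of 2.68%, 4 sites at 0 and a highest level of 58.0%.

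The second library had few runs in the locus. Over its whole list, 22.8% of sites lay in runs, and 27.9% (21.9 to 34.6) in the flanks. In the locus only 6 of 101 sites, or 5.94% (2.21 to 12.5), were in runs. These were 2 runs of 3 sites, at 37665682 to 37665812 in beta and 37903540 to 37903640 in gamma, and 0 of 29 alpha sites were in a run. The locus thus lay above its flanks in this measure in the first library and below them in the second. With gaps of up to 200 bp, the second library's shares were 26.7% (18.4 to 36.5) in the locus and 31.4% (25.1 to 38.2) in the flanks, so that the intervals overlapped.

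The 5-base context TGCGC, again centred on the cytosine, was frequent in beta. It was picked out after its values had been seen. It made up 2.19% of the whole first list and 0.919% (0.299 to 2.13) of the flank sites. In beta it accounted for 24 of 132 sites, or 18.2% (12.01 to 25.8), at 15 places more than 1 kb apart, so these sites were not confined to the longest run. In alpha it accounted for 4 of 114 (3.51%) and in gamma for 3 of 112 (2.68%). The 24 beta sites had a median level of 12.3%, with 5 at 0 and a range from 0 to 100%. Outside the longest run, 22 of 100 beta sites had this context. How many CpGs of beta have this context was not analysed here. The beta genes resemble each other in sequence, and how that bears on the read alignment at these sites was not tested.

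The strands listed in the second library differed between clusters. Over its whole list, 50% of sites lay on the plus strand. In alpha 25 of 29 sites did, or 86.2% (68.3 to 96.1). In beta 11 of 28 did (39.3%, 21.5 to 59.4), and in gamma 13 of 41 (31.7%, 18.1 to 48.1), beside 123 of 204 in the flanks (60.3%). For the whole locus the share was 48.5%. The alpha sites fell into 16 places when sites within 1 kb were joined, of which 14 held plus-strand sites alone, 1 minus-strand sites alone and 1 both. The 18 gamma places held plus alone in 5, minus alone in 8 and both in 5. Of 2009 autosomal windows of the length of alpha with 20 or more second-library sites, 17 or 0.846% had a plus share as high, and 193 of 1667 windows (11.6%) had one as low as gamma. The strand shares and this comparison were not planned, so these ranks are a description only. The asymmetry could be seen in 1 library only, as the first reported every CpG at its plus-strand cytosine.

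**Figure D5:**
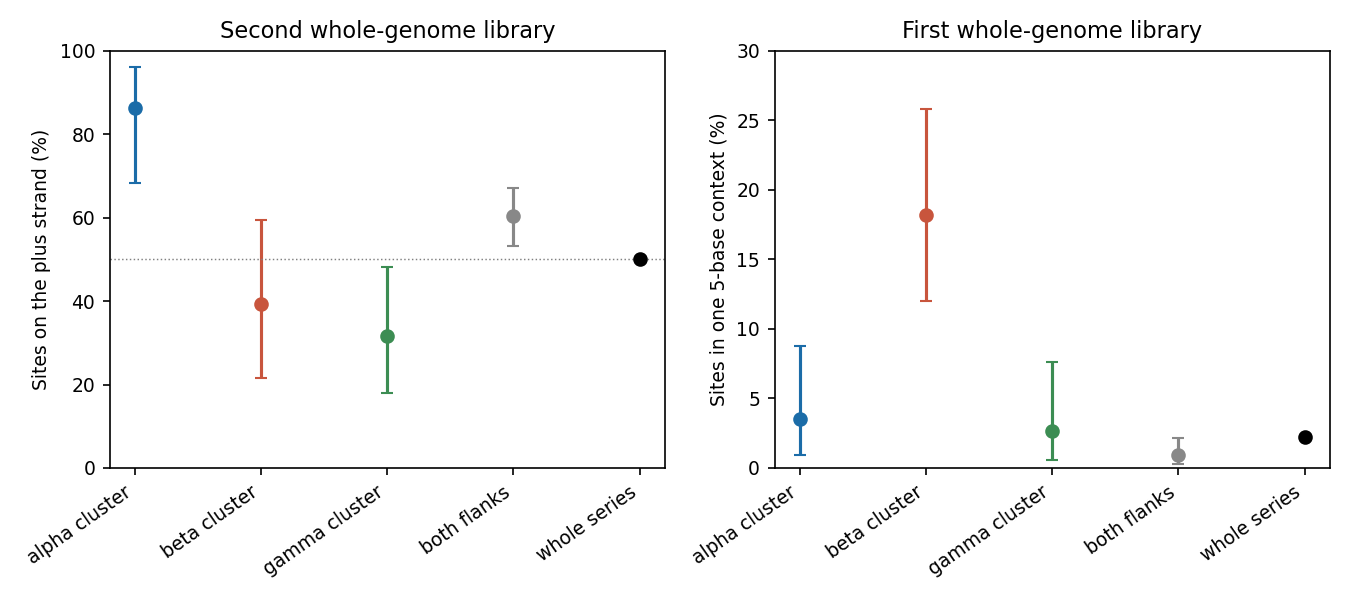
Left, share of second-library sites on the plus strand by region; right, share of first-library sites in the context TGCGC by region; both in percent with exact 95% intervals. Alpha stands at 86.2% plus strand, gamma at 31.7%, and beta at 18.2% TGCGC.

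The strand listed in the second library went along with the level in the first. Of 5 CpGs of the locus that both libraries listed and of which the second gave the minus strand alone, 4 were at level 0 in the first. Of 15 with the plus strand alone, 1 was at 0. In the series the shares were 69.5% and 2.23%. Most zeros of the locus were outside these CpGs. In gamma, 36 of the 39 sites at 0 were not listed in the second library on either strand, and of all gamma sites not listed there 36 of 106 (34.0%) were at 0, beside 18 of 106 in alpha (17.0%).

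Few sites were common to the libraries. Of all second-library plus-strand sites, 35.3% were listed at the same base in the first, and of the locus sites 15 of 49, or 30.6% (18.3 to 45.4). Alpha shared 8 of 25, beta 5 of 11 and gamma 2 of 13, beside 50 of 123 in the flanks, or 40.7% (31.9 to 49.9). Among second-library sites with p of at most 0.001, the order turned, with 47.4% in the locus (24.4 to 71.1) and 44.4% in the flanks (31.9 to 57.5). The intervals for gamma (1.92 to 45.4) and the flanks overlap. Of minus-strand sites, 12.5% lay on a CpG of the first list, and in the locus 5 of 52, or 9.62%. As a share of the first list, 20 of its 380 locus sites were on a CpG of the second, or 5.26% (3.24 to 8.01), beside 10.8% in the flanks (8.36 to 13.8). Within 100 bp, 60 of 101 second-library sites had a first-library neighbour (59.4%), beside 61.8% in the flanks and 45.9% in the series. A match within 100 bp includes every match at the same base, and it was counted over both strands. Its higher share is therefore no finding about the scale of agreement. At 14 shared plus-strand sites with recovered reads, levels ranged from 0 to 22.1% in the first library, with a median of 12.1%. In the second they ranged from 8.02 to 33.3% without subtraction, with a median of 25%. The second was higher at 12 of these sites. Its list holds called sites only, and 3 converted reads of 12 already make 25%, so lower values at such depths may be absent. The part of calling and depth in the higher values was not tested. In alpha, the 8 shared sites had first-library levels of 3.299%, 9.59%, 9.79%, 17.5%, 19.5%, 13.8%, 21.9% and 22.1% in order of position. These sites lay between 37100731 and 37181955, within the densely listed side of alpha, and none was at 0. The second library gave 3 to 6 converted reads of 12 to 22 at each of them.

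A small number of sites stood out in strength and were listed in both whole-genome libraries. In beta, the plus-strand cytosine at 37665812 had a level of 100% in the first library and a p-value of 2.22e-16 in the authors' second list, a value at the limit of floating-point precision. In gamma, the CpG at 37927922 reached 75.8% in the first library, and the second listed its minus-strand cytosine at 37927923, with 3 of 10 reads converted (30.0%, 6.67 to 65.2) and p = 0.00538 in the authors' list. The gamma cytosine at 37927382 went the other way, with p = 7.82e-14 in the authors' second list on the minus strand and a level of 0 at that CpG in the first. Other levels of 50% or more in the first library had no counterpart at the same base in the second, among them 100% at 37516794 and 37573344 in beta, and 58.0% at 37841678 and 66.9% at 37923499 in gamma.

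Few sites of the locus were listed in the reduced-representation libraries. There were 7 with the control shRNA and 5 with the Tdg shRNA, and none was shared. In the series, the lists of 12895 control and 8948 Tdg sites had 1567 in common, and in the flanks 1. With so few locus sites, the lack of a shared one is no finding about the locus. The median autosomal window of the same length held 3 and 2 sites, and 74.5% and 77.0% of windows held fewer than the locus. The ratio of Tdg to control was 0.714 (0.179 to 2.61), beside 14 against 25 sites and 0.560 (0.269 to 1.12) in the flanks and 0.694 in the series. Among sites at a level of 10% or more the ratio turned to 1.33 (0.226 to 9.10). An excess or a deficit after Tdg shRNA was not detectable at these counts. All 5 Tdg sites lay in gamma, whereas the control library had 2 sites there and 5 in alpha and beta together. The Tdg library's 0 sites in alpha and beta allow up to 3.69, and the ratio there could be as high as 1.09. In gamma the ratio of 2.50 had an interval from 0.409 to 26.3.

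Levels at these sites were low with 1 exception. In the control shRNA library, the alpha sites 37101199, 37233713, 37249606 and 37304656 had levels of 8.04%, 13.1%, 9.37% and 24.7%. Its beta site, 37622196, was at 100%, 12716 bp from the nearest first-library and 12641 bp from the nearest second-library site. Its gamma sites 37834384 and 37926581 had 3.17% and 5.18%. The Tdg shRNA sites in gamma, 37828822, 37885599, 37912683, 37967588 and 38002275, had 7.48%, 11.4%, 17.3%, 11.4% and 10.2%. Medians were 9.37% for control and 11.4% for Tdg, beside 7.06% and 15.7% in the flanks. The nearest pair of sites between the libraries was 5562 bp apart.

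None of the 7 control or 5 Tdg sites lay on a base or CpG listed in a whole-genome library, beside 4.92% and 14.9% of sites at the same base in the series. On the same CpG, the series shares were 8.45% and 19.3%. The counts of 0 allow shares of up to 41.0% and 52.2%, so a difference from the series was not shown. Within 100 bp, 2 of 7 and 2 of 5 had a whole-genome neighbour, beside 46.5% and 53.6%. The control site at 37926581 was 5 bp from a first-library site and 49 bp from a second-library site. The Tdg site at 37885599 was 19 bp from a second-library site and 116 bp from a first-library site, within the gamma window with 13 first-library sites.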

How the data were processed

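Genomic DNA of E14 cells was analysed in 4 MAB-Seq libraries. CASAVA 1.8, Bismark 0.10.1 and build mm9 were used, per the submitters' processing notes. For the calling rule, the filters and the depth, the sources used here give nothing. The authors deposited a percent level per CpG for the first whole-genome library and both shRNA libraries, and a p-value per cytosine for the second whole-genome library. The values themselves show what was done: all first-library percentages equal a 3-decimal fraction less a background of 3%, and those of the control and Tdg shRNA libraries a 4-decimal fraction less 2.9% and 3.3%. Of second-library p-values above 1e-07, 99.96% equal a binomial upper tail with a background of 3.8% (relative tolerance 1e-08), which gave total and converted reads.

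Sites were counted by position with Python 3.11.15, pandas 2.3.3 and scipy 1.17.1, and figures drawn with matplotlib 3.10.9. Counts have exact Poisson 95% intervals, ratios exact conditional binomial intervals, shares Clopper-Pearson intervals, and medians order-statistic intervals. Windows for ranking began at 3 Mb on each autosome. No p-value between groups was computed, since each shRNA had 1 library and the whole-genome lists differ in unit. The scripts were tested on simulated data.

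Named were the 3 clusters, spacers and flanks, the 3 fullest windows of 10 kb per cluster, the 3 longest runs, sites in both whole-genome libraries with a level of 50% or more or p of at most 1e-12, and all shRNA-library sites in the locus. The members and lists were chosen with earlier results of these data known. The context TGCGC, the joined strand places, the division of clusters at their midpoints and the values without the longest run were chosen after the values were seen. The strand shares and their comparison with windows were not planned either. Alternatives for flanks, levels, gaps and matching are given in the closing section.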

Additional observations from a re-analysis of the deposited data

How the results depend on the processing

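Of 87 alternatives for 23 results, 56 left the value within its interval and 31 moved it. Of the ratios, 0 whose interval excluded 1 crossed it, but 8 alternatives took a ratio whose interval included 1 to its other side: the second-library locus ratio (1.08) to 0.986 with flanks of 0.5 Mb, 0.943 with the left flank alone and 0.927 at p of at most 0.001, alpha (1.09) to 0.996 and 0.953 with the same flanks, beta (0.980) to 1.30 with flanks of 2 Mb and 1.15 with the right flank alone, and Tdg to control (0.714) to 1.33 at a level of 10% or more. The causes of the moves were not tested, except where the setting itself changes what is counted. With flanks of 2 Mb, the density ratio in the first library was 1.94 for the locus, 2.04 for alpha, 2.20 for beta and 2.75 for gamma, and 1.43 for the locus in the second. With both whole-genome libraries summed, the locus ratio was 1.41, and leaving out 1 library gave 1.08 to 1.53. Without the longest run, chosen after seeing the data, the beta ratio was 1.31 and the beta median 9.79%. With levels above 0 only, medians were 15.4% for the locus, 19.1% for beta, 14.1% for gamma and 12.8% for the flanks. With the background added back they were 14.1% for the locus, 14.2% for alpha, 11.4% for gamma and 13.1% for the flanks. The share of first-library sites in runs was 28.4%, 69.7% and 21.6% for the locus, and 19.7%, 39.2% and 17.6% for the flanks, with a gap of 50 bp, a gap of 200 bp and runs of 5 or more. In the second library it was 0%, 26.7% and 0% for the locus under these settings, and 19.1%, 31.4% and 13.7% in the flanks. Sharing in the locus and the flanks was 59.4% and 61.8% within 100 bp, 47.4% and 44.4% at p of at most 0.001, and 19.8% and 28.9% on the same CpG of either strand. No paired analysis was possible because only 1 whole-genome label carries a replicate number and each shRNA had 1 library. Coverage limits every statement on absent sites, as depth is known for 1 library and there only at sites it listed.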

Other observations

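Runs like the longest of the beta cluster occur elsewhere in the first whole-genome list. Of 963 runs of 10 or more sites in the series, 146 (15.2%) consisted mostly of TGCGT sites. The median over such runs of the median level of each was 38.5% (quartiles 21.3% and 58.7%), beside 11.2% for the other runs. The counts that follow include the beta run itself. Its median of 47.9% was reached or exceeded by 56 of the 146. Separately, 11 of the 146 had at least as many sites as the beta run, and 7 lay on chromosome 18. In all, 29 of 19405 runs had as many sites or more. These values were looked at after the beta run had been seen.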
